A study of Mus musculus with 12 samples.

Results

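The comparison described here set the spleens of 3 mice that had received busulfan and then saline (B-sa) against those of 3 mice that had received saline alone (Con-sa). The samples were chosen by the agent in their labels, Busulfan for B-sa and Blank for Con-sa, and they are 6 of the 12 samples of the series. All were male mice of the outbred ICR stock, with no engineered allele given. B-sa mice received a single injection of busulfan at 40 mg per kg of body weight, and saline was then given orally to both groups every day for 2 weeks. The mice were 3 weeks old at the start and 8 weeks old when the spleens were taken, 3 weeks after the last dose, so that the values describe a late state and not the acute response. The other 6 samples came from mice given busulfan followed by gut microbiota (B+Con-FMT from control donors, B+A10-FMT from donors given alginate oligosaccharide), and here they served to estimate the spread between samples. Each sample was taken as 1 mouse of the 30 kept per group. Whether spleens were pooled, and which mice were littermates, is not given in the sources used here, so that the p-values measure the spread between these samples.

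Busulfan is an alkylating agent that crosslinks DNA, kills stem and progenitor cells of the bone marrow and is used to empty the marrow before transplantation. The spleen filters old red cells from the blood in its red pulp and holds B and T lymphocytes in its white pulp. In mice it also makes red cells, granulocytes and platelets through adult life, and this output grows when the marrow is under strain. Natural killer (NK) cells, short-lived myeloid cells and new B cells of the spleen are all supplied from marrow precursors.

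Expression was measured by sequencing of polyadenylated RNA. The deposited columns name no unit, and their values were taken as RPKM, the unit in the methods of the study. RPKM are reads per kilobase of transcript scaled to the size of the library. The values of all transcripts of a gene were added, and the 12448 genes with at least 1 RPKM in at least 3 of the 6 mice were tested with limma on log2(RPKM + 1), a scale that understates changes of low genes. An adjusted p under 0.05 made a gene called, and SE is the standard error of its log2 fold change. The depth of the 6 libraries was estimated at 15.1 to 15.7 M reads (M, mega), where 1 RPKM on a transcript of 2 kb corresponds to about 28 reads. Defining genes of B cells (Cd79a, 530 to 745 RPKM) and red pulp macrophages (Hmox1, 233 to 325 RPKM) were high in all 6 mice. Digestive enzyme genes of the pancreas were also present, with a summed level of 1896 to 10183 RPKM in Con-sa mice and 687 to 4869 RPKM in B-sa mice. These ranges overlapped (exact permutation test, two-sided p = 0.3), and none of the 33 tested genes of that list was called. Within groups, the values of all genes correlated between mice at 0.986 to 0.995 in Con-sa and 0.987 to 0.993 in B-sa.

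The spleens of B-sa mice differed from those of Con-sa mice in many genes, by small amounts. Of the genes tested, 1843 (14.8%) were called, of which 601 (4.83%) were higher and 1242 (9.98%) were lower in B-sa mice. Called genes changed by a median of 0.30 on the log2 scale in either direction, and 47 of them changed by 1 or more, 20 upward and 27 downward. The mice of the 2 groups did not overlap in 4265 genes (34.3%). Genes of NK cells, B cells and vessel walls were among the lower ones, and genes of cell division, red cell precursors and neutrophils among the higher ones. In bulk tissue, fewer cells of a type and less RNA per cell cannot be told apart. The number called was 868, 811 and 943 without Con-sa mouse 1, 2 or 3, and 531 without B-sa mouse 2.

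**Figure D1:**
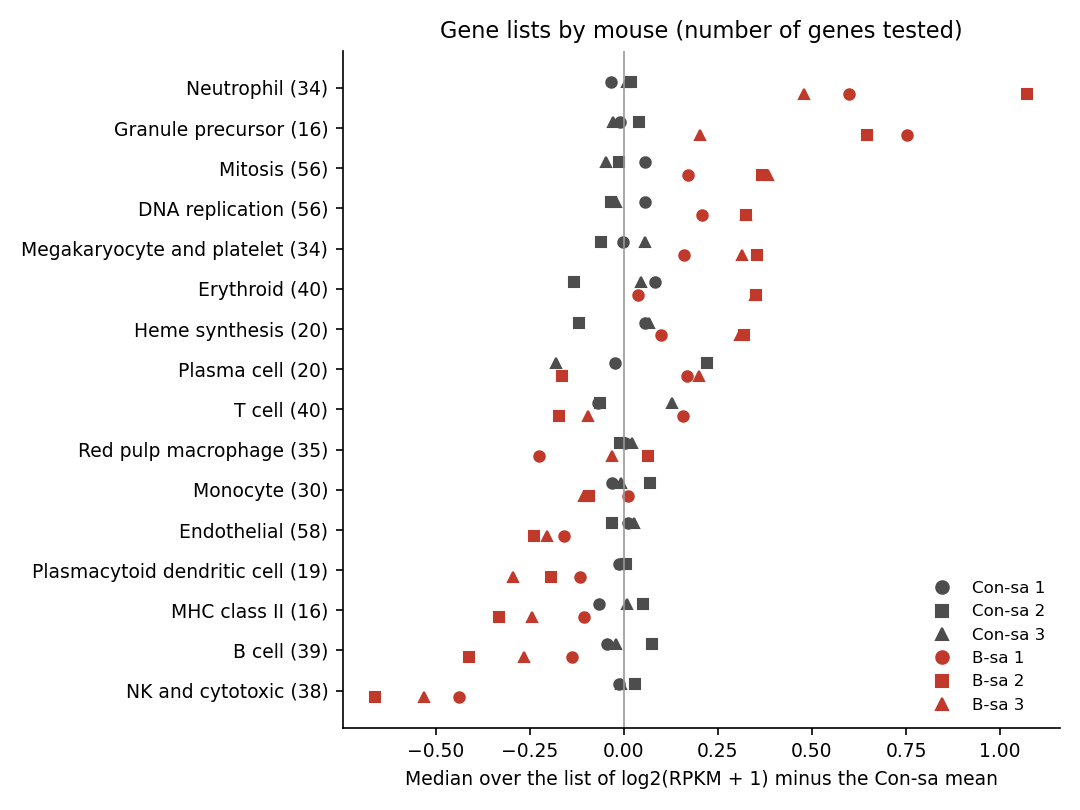
Gene lists by mouse. Each point is 1 mouse, and the horizontal axis is the median over the tested genes of a list of log2(RPKM + 1) minus the mean of the 3 Con-sa mice. The B-sa mice lie left of the Con-sa mice for NK and cytotoxic, B cell, MHC class II and endothelial genes and right of them for neutrophil, mitosis and DNA replication genes, and they overlap them for erythroid, T cell and plasma cell genes.

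The calls depended on the length of the transcripts. The genes called lower had a median transcript length of 4036 bases and those called higher 1945 bases, against 2811 bases for all genes tested. When the genes were split by length into 5 groups, 20.93% of the group of longest transcripts were lower and 1.61% were higher, whereas 4.2% of the group of shortest transcripts were lower and 8.9% were higher. When the trend of each mouse along length and GC content was removed, 697 genes were higher and 591 were lower. Scaling by the median of ratios between mice gave 974 higher and 746 lower genes. The count of genes in each direction thus moved with the scaling. Over all genes tested, 4.83% were higher and 9.98% lower in the main fit, the shares to set beside the counts of each gene group. For the gene groups, the number called is given again where leaving out 1 mouse, removal of the length trend, median-of-ratios scaling or a fit of the 6 mice alone moved a number of 1 or more by over 1.5 times.

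**Figure D2:**
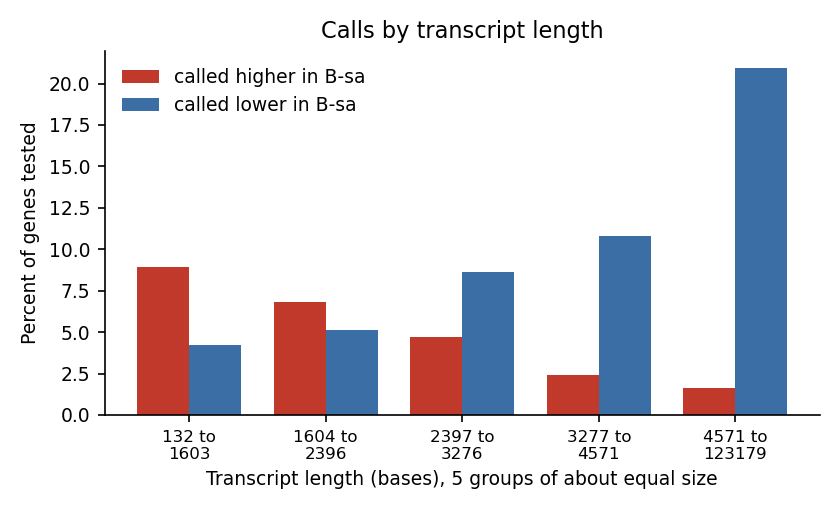
Calls by transcript length. The horizontal axis shows 5 groups of genes by transcript length in bases, and the bars show the percent of the tested genes of each group called higher or lower in B-sa mice. The percent called lower grew from 4.2 in the shortest group to 20.93 in the longest, and the percent called higher dropped from 8.9 to 1.61.

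NK cell genes had the lowest median of the blood and immune cell lists. Ncr1 (gene 17086, chr7:4337715-4345184), which encodes the activating receptor NKp46 and marks NK cells, was at 12.7, 13.3 and 12.6 RPKM in the Con-sa mice and at 4.31, 3.99 and 3.91 RPKM in the B-sa mice. All 3 B-sa mice were far below all Con-sa mice, and the mice of each group lay close together. The mean was 3.16-fold lower in B-sa mice (log2 fold change -1.45, SE 0.17, adjusted p = 0.0021). Gzma (gene 14938, chr13:113093824-113100981), which encodes granzyme A of cytotoxic granules, was at 50.8, 55.5 and 47.2 RPKM in the Con-sa mice and at 14.3, 16.3 and 15.7 RPKM in the B-sa mice. The groups were again far apart, with a 3.32-fold lower mean in B-sa mice (log2 fold change -1.67, SE 0.28, adjusted p = 0.00875).

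Of the 38 NK and cytotoxic genes tested, 21 were lower and 0 were higher. The median log2 fold change was -0.46 against -0.04 for all genes. Of the 14 listed genes on chromosome 6, most of which are receptors of the NK gene complex, 11 fell, with a median of -0.78. Klra4, a receptor of the Ly49 family, was at 5.74, 5.21 and 4.44 RPKM in the Con-sa mice and at 2.27, 0.92 and 1.12 RPKM in the B-sa mice (adjusted p = 0.00276). Its highest B-sa value was below its lowest Con-sa value. Klrb1c (NK1.1), Klrk1 (NKG2D), Klrd1 (CD94) and Klre1 fell by 1.07, 0.78, 0.76 and 1.11 on the log2 scale. The Klra genes are near-identical copies that vary between mouse stocks, so that reads may be split among them and their single values are uncertain.

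Of the 24 listed genes outside chromosome 6, 10 fell, with a median of -0.35. Among them were Eomes and Tbx21 (-0.68 and -0.49), the transcription factors of the lineage, S1pr5 (-0.93), which guides NK cells out of the marrow, and Prf1 (-0.65), the pore-forming perforin. Nkg7, a protein of cytotoxic granules, was at 40.4, 43.2 and 42.3 against 37.6, 38.9 and 32.6 RPKM and was not called (log2 fold change -0.20, SE 0.07, adjusted p = 0.0696), and neither was Gzmb, which encodes granzyme B (log2 fold change -0.37, SE 0.24, adjusted p = 0.319). With the length trend removed, 21 genes of the list were lower, and 14 to 23 were lower when any 1 mouse was left out, the fewest without Con-sa mouse 3 and without B-sa mouse 2.

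**Figure D3:**
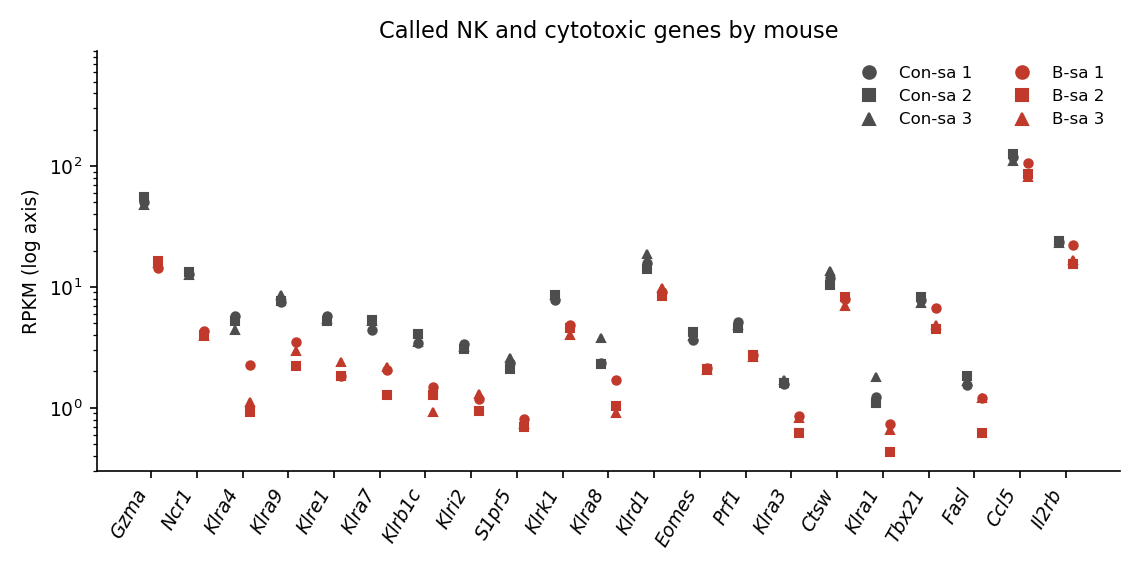
Called NK and cytotoxic genes by mouse. The vertical axis is RPKM on a log scale, each point is 1 mouse, and the B-sa mice lie below the Con-sa mice in the genes shown, as for Ncr1 (3.91 to 4.31 against 12.6 to 13.3 RPKM).

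Of the B cell genes, 21 of 39 were called lower, by smaller amounts. Cd79b, a chain of the B cell receptor complex, was at 425, 479 and 442 RPKM in the Con-sa mice and at 374, 309 and 322 RPKM in the B-sa mice (log2 fold change -0.42, SE 0.07, adjusted p = 0.00495). Blk, a kinase of B cell receptor signalling, was at 84.2, 85.8 and 85.1 RPKM in the Con-sa mice and at 67.5, 58.6 and 63.5 RPKM in the B-sa mice (log2 fold change -0.42, SE 0.06, adjusted p = 0.00287). In both genes the groups did not overlap, and B-sa mouse 2 was the lowest. The list held 1 gene that was higher. Its median was -0.28, and 37 of its genes had a negative log2 fold change. Ms4a1 (CD20), a surface protein of mature B cells, fell by 0.38. Ebf1, a transcription factor of B cell identity, fell by 0.46, and Cd22, an inhibitory co-receptor, by 0.45. The member that rose was Cd24a (log2 fold change 0.27, SE 0.08), a surface protein that red cell precursors also carry. The number of lower B cell genes was 8 without Con-sa mouse 2 or B-sa mouse 2, and 11 with the 6 mice alone. The number higher was 0 without Con-sa mouse 1, 2 or 3 or B-sa mouse 2 or 3 and with the length trend removed or the 6 mice alone.

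Among marginal zone B cell genes, 6 of 16 fell, with a median of -0.13. Notch2, the receptor that directs B cells to the marginal zone, was at 21, 20.2 and 19.5 RPKM in the Con-sa mice and at 14.7, 13.2 and 15.5 RPKM in the B-sa mice (log2 fold change -0.46, SE 0.06, adjusted p = 0.00257). S1pr1, a sphingosine phosphate receptor that B and T cells and endothelium also use, was at 90.3, 94.6 and 93.4 against 74.9, 56.2 and 67.5 RPKM (log2 fold change -0.49, SE 0.08). The groups did not overlap in either gene. Dtx1, a target of Notch signalling, fell by 0.42 and Cd1d1, which presents lipids, by 0.34. Of 17 germinal center genes, 1 fell (Elk3, -0.26) and 0 rose, and of 20 plasma cell genes 0 were called in either direction, with a median of 0.13 for both lists. Jchain, the joining chain of secreted antibodies, had a mean of 426 ± 98.7 RPKM in Con-sa mice and 538 ± 69.3 RPKM in B-sa mice (SD, n = 3), and the groups overlapped (log2 fold change 0.35, SE 0.20, adjusted p = 0.257). The number of lower germinal center genes was 0 without Con-sa mouse 2 or B-sa mouse 2, and 2 without B-sa mouse 1 or 3.

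T cell genes moved little. Of 40 tested, 5 were lower and 0 were higher. Their median was -0.02 as deposited and 0.02 with median-of-ratios scaling. Cd7, a surface protein shared by T cells and NK cells, was at 35.4, 36.9 and 39.3 RPKM in the Con-sa mice and at 20.7, 19.4 and 20.7 RPKM in the B-sa mice (log2 fold change -0.85, SE 0.08, adjusted p = 0.000404). The groups were well apart, and the 3 mice of each lay close together. Cd8b1, Il7r and Satb1 were among the other members that fell, by 0.30 to 0.39. The number of T cell genes called was 2 without Con-sa mouse 2 or 3 or B-sa mouse 2, and 3 without Con-sa mouse 1 or B-sa mouse 1 or 3 and with median-of-ratios scaling. The defining genes Cd3e, Cd4 and Cd8a overlapped between the groups and were not called. Cd3e, part of the T cell receptor complex, was at 33.7, 33.5 and 43.6 against 38.6, 32 and 33.5 RPKM (log2 fold change -0.08, SE 0.10, adjusted p = 0.61). Of 16 regulatory T cell genes, 1 was lower, namely Capg (-0.44), which myeloid cells also make. On that list the number lower was 0 without Con-sa mouse 1, 2 or 3 or B-sa mouse 2 or 3 and with the length trend removed or median-of-ratios scaling, and 2 without B-sa mouse 1.

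Some genes of plasmacytoid dendritic cells fell, and the list of conventional dendritic cells moved little. Siglech, a receptor of plasmacytoid dendritic cells, was at 16.7, 15.4 and 16.3 RPKM in the Con-sa mice and at 9.38, 8.84 and 9.04 RPKM in the B-sa mice (log2 fold change -0.76, SE 0.10, adjusted p = 0.00257). No B-sa mouse reached the Con-sa range. In the plasmacytoid list 6 of 19 genes fell and 0 rose, with a median of -0.21. Cd300c, a surface receptor of that list, fell by 1.14, and it was under 1 RPKM in all B-sa mice and passed the filter only through the Con-sa mice. The number lower was 2 without B-sa mouse 2, and 3 without Con-sa mouse 2 or 3 and with the length trend removed. In the conventional dendritic cell list 6 of 31 fell and 1 rose, with a median of -0.08. There the number lower was 3 without Con-sa mouse 1 or 3 or B-sa mouse 2, and the number higher was 0 without Con-sa mouse 1, 2 or 3 or B-sa mouse 2 and with the length trend removed or the 6 mice alone, and 2 without B-sa mouse 1. Of its called genes, Notch2, Dtx1 and Cd24a are also on the B cell or marginal zone B cell lists.

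Of 16 genes of MHC class II presentation, 6 were lower and 0 were higher, with a median of -0.23. Ciita, the master regulator of the class II genes, fell by 0.40, and Cd74, the invariant chain, was at 3716, 4274 and 4096 RPKM in the Con-sa mice and at 3656, 3004 and 3154 RPKM in the B-sa mice (log2 fold change -0.30, SE 0.07, adjusted p = 0.0146). The number lower was 0 without B-sa mouse 2, 1 without Con-sa mouse 2, and 2 with the 6 mice alone. B cells carry class II as well, and 21 B cell genes were lower in the same mice. Their part in the class II values was not tested.

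Few macrophage genes were called. Of 35 red pulp macrophage genes, 0 fell and 2 rose (Blvrb, which reduces biliverdin, 0.37, and Tfrc, the transferrin receptor, 0.33), both of which red cell precursors also express. The number that rose was 0 without Con-sa mouse 2 or B-sa mouse 2 and with the 6 mice alone, and 1 without Con-sa mouse 3 or B-sa mouse 3. Slc40a1 (ferroportin, which exports iron from macrophages) was at 96.6, 98.5 and 92.1 against 80.6, 103 and 106 RPKM, with overlap of the groups (log2 fold change 0.00, SE 0.10). Cd163, the scavenger receptor for hemoglobin, was at 2.74, 1.55 and 3.73 against 0.83, 1.82 and 2.33 RPKM and was not called (log2 fold change -0.46, SE 0.26, adjusted p = 0.244). Siglec1 (CD169), of marginal metallophilic macrophages, was at 10.1, 10.2 and 11.2 against 7.56, 10.2 and 8.83 RPKM, also with overlap (log2 fold change -0.23, SE 0.19, adjusted p = 0.428).

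In the marginal zone macrophage list 2 of 14 genes fell, Stab2 and Cd209a (-0.49 and -0.64). On that list the number that fell was 1 without Con-sa mouse 1 or 3 and with median-of-ratios scaling or the 6 mice alone. Ly6c2, a marker of inflammatory monocytes, was at 44.3, 53.9 and 35.2 against 63.8, 133 and 62.8 RPKM. The B-sa mice lay above the Con-sa mice with a wide spread, and the gene was not called (log2 fold change 0.87, SE 0.48, adjusted p = 0.248). Ly6c1, its near-identical neighbour, was not called either (log2 fold change 0.27, SE 0.24, adjusted p = 0.475). Of 30 monocyte genes, 3 fell (Klf2 and Ace among them, by 0.47 and 0.39) and 0 rose, beside 9.98% of all genes tested called lower. The number that fell was 1 without Con-sa mouse 1, 2 or 3 or B-sa mouse 2, and 5 without B-sa mouse 1, and Ace was not called with the length trend removed (limma log2 fold change -0.27, adjusted p = 0.0786).

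Neutrophil genes had the highest median of the blood and immune cell lists, 0.70, with a wide spread between the B-sa mice. Wfdc21, a secreted protein of neutrophils, was at 9.68, 9.80 and 5.50 RPKM in the Con-sa mice and at 18.2, 30.9 and 20.9 RPKM in the B-sa mice (log2 fold change 1.39, SE 0.27, adjusted p = 0.0135). Camp, an antimicrobial peptide of secondary granules, was at 181, 186 and 208 against 419, 551 and 321 RPKM (log2 fold change 1.13, SE 0.30, adjusted p = 0.0413). The B-sa mice exceeded all Con-sa mice in both, and B-sa mouse 2 was the highest. Of 34 genes, 10 were higher and 0 were lower, and in 26 the B-sa mice lay wholly above the Con-sa mice. Over all genes tested, 4.83% were called higher, and in 34.3% the groups did not overlap, counted over both directions together. The abundant calprotectin subunits S100a8 and S100a9 were not called. S100a8 was at 676, 695 and 648 against 1251, 1891 and 1173 RPKM (log2 fold change 1.06, SE 0.34, adjusted p = 0.069), and S100a9 had the like values (log2 fold change 1.07, SE 0.31, adjusted p = 0.0529). With the 6 mice alone S100a8 and S100a9 were called (limma adjusted p = 0.0279 and 0.0319), and neither was called when 1 mouse was left out. Prtn3, Ms4a3 and Ctsg, genes of granule-forming precursors, rose by 1.52, 1.46 and 1.44, and they were the 3 of 16 granule precursor genes that were called. On that list the number higher was 0 without Con-sa mouse 1, 2 or 3 or B-sa mouse 1 or 2, 1 with the length trend removed, and 5 with the 6 mice alone. With the length trend removed 1 of its genes, Nkg7, was lower (limma log2 fold change -0.26, adjusted p = 0.0139). The number of neutrophil genes called higher was 1 without B-sa mouse 2, 2 without Con-sa mouse 1 or 3, 3 without Con-sa mouse 2, 6 without B-sa mouse 1, and 17 with the 6 mice alone.

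The stefin A genes, which encode small inhibitors of cysteine proteases and lie together on chromosome 16, included the largest rises. Cstdc5 was at 0.24, 1.18 and 1.89 RPKM in the Con-sa mice and at 128, 28.8 and 8.43 RPKM in the B-sa mice (log2 fold change 4.06, SE 0.85, adjusted p = 0.0204). Stfa3 was at 0.00, 0.79 and 0.26 against 43.6, 9.08 and 3.54 RPKM (adjusted p = 0.0219). B-sa mouse 1 was the highest and B-sa mouse 3 the lowest of the B-sa mice in both, whereas mouse 2 was the highest for Wfdc21 and Camp. Cstdc4, Cstdc6 and Stfa2 rose by 2.79, 2.53 and 3.25. The 5 genes span chr16:36184212-36455392, where all 5 tested genes were called. Stfa2, Stfa3 and Cstdc6 were under 1 RPKM in all Con-sa mice and passed the filter only through the B-sa mice, where they were high. That they were tested and called is thus in part set by the filter. Cstdc5 was not called without Con-sa mouse 1, Con-sa mouse 2 or B-sa mouse 2 (limma adjusted p up to 0.0652), and the other 4 genes were each called in 2 of the 6 fits that left out 1 mouse. With the 6 mice alone none of the 5 was called (limma adjusted p = 0.109 to 0.16). These genes are close copies of one another, and their single values are uncertain.

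Of the red cell precursor genes, 12 of 40 were called higher, and the median of their list in B-sa mouse 1 lay within the range of the Con-sa mice. Gata1, the transcription factor that drives erythroid development, was at 61.8, 55.7 and 66.5 RPKM in the Con-sa mice and at 78.5, 90.1 and 84.5 RPKM in the B-sa mice (log2 fold change 0.45, SE 0.08, adjusted p = 0.00585). The groups did not overlap. Of the erythroid genes 0 were lower. The median of the list was 0.26, and 38 of its genes had a positive log2 fold change. Car2 (carbonic anhydrase), Tfr2, Epor (the erythropoietin receptor) and Klf1 rose by 0.42, 0.43, 0.40 and 0.33. Of 20 genes of heme synthesis, 9 rose and 0 fell, among them Alad, Uros and Urod, which encode enzymes of the pathway (0.31 to 0.33). The median over the erythroid list was 0.04 above the Con-sa mean in B-sa mouse 1 and 0.35 and 0.35 in mice 2 and 3. The number of erythroid genes called higher was 1 without Con-sa mouse 2 or B-sa mouse 2, 3 with the 6 mice alone, 4 without B-sa mouse 3, 6 without Con-sa mouse 1, and 31 without B-sa mouse 1. For heme synthesis it was 0 without B-sa mouse 2, 1 without Con-sa mouse 2 and with the 6 mice alone, 4 without Con-sa mouse 1 or B-sa mouse 3, and 14 without B-sa mouse 1.

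Globin transcripts made up 24.89 to 25.95% of the summed RPKM in Con-sa mice and 27.99 to 32.41% in B-sa mice. The groups did not overlap (exact permutation test, two-sided p = 0.1, the smallest that 3 against 3 allows). Of 9 globin genes tested, 4 were higher and 2 were lower. The number of globin genes called higher was 0 without B-sa mouse 2, 1 without B-sa mouse 3 and with the length trend removed or the 6 mice alone, and 2 without Con-sa mouse 1, 2 or 3, and the number lower was 0 without B-sa mouse 2, and 1 without Con-sa mouse 2. Hbb-b1 and Hbb-b2, which were higher, have no value with the length trend removed. With the libraries scaled to equal totals outside the globin genes, 583 genes were higher and 1119 lower. Megakaryocyte and platelet genes had a median of 0.27, with 30 of 34 positive, but 2 were called higher (Gp5 and Gp9, chains of the receptor for von Willebrand factor, 0.46 and 0.45) and 3 lower (Sh2b3, Fli1 and Nbeal2). The number called higher was 0 without Con-sa mouse 1, 2 or 3 or B-sa mouse 2 or 3, and 14 with the 6 mice alone, and the number lower was 1 without Con-sa mouse 2 or 3 or B-sa mouse 2 and with the 6 mice alone. Pf4, platelet factor 4, was at 343, 318 and 371 against 432, 551 and 469.8 RPKM, without overlap and not called (log2 fold change 0.49, SE 0.21, adjusted p = 0.142). Of 29 stem and progenitor genes, 2 were higher (Myb, 0.31, and Lmo2, 0.19) and 1 was lower (Fgd5, -0.39), with a median of 0.03. Among these the number higher was 0 without Con-sa mouse 1 or B-sa mouse 2, 1 without Con-sa mouse 2 or 3 or B-sa mouse 3 and with the length trend removed or the 6 mice alone, and 4 without B-sa mouse 1. The number lower was 0 without Con-sa mouse 1 or B-sa mouse 2 and with the length trend removed, and 2 without B-sa mouse 1.

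Many genes of cell division were called higher. Plk1, the kinase that drives entry into mitosis, was at 31.6, 31.8 and 31.4 RPKM in the Con-sa mice and at 45.1, 47.6 and 40.2 RPKM in the B-sa mice (log2 fold change 0.47, SE 0.07, adjusted p = 0.00442). Spc25, a kinetochore protein, was at 31.2, 28.8 and 32 against 40, 48.6 and 45.7 RPKM (log2 fold change 0.53, SE 0.08, adjusted p = 0.00466). All B-sa mice were above all Con-sa mice in both. Of 56 mitosis genes tested, 35 were higher and 0 were lower, and all 56 had a positive log2 fold change, with a median of 0.30. DNA replication genes gave 36 higher and 0 lower of 56, with a median of 0.28. Pcna, the sliding clamp of the polymerases, was at 399.7, 369 and 389 against 460.4, 498 and 512 RPKM (log2 fold change 0.34, SE 0.06). Tipin, Gmnn, Cdc45 and Orc6, which act at origins and forks, rose by 0.36, 0.43, 0.44 and 0.41. With the length trend removed, 38 mitosis and 42 replication genes were higher. Mki67, the gene of the proliferation marker Ki67, was at 174, 149 and 143 against 153, 185 and 199 RPKM, with overlap, and was not called (log2 fold change 0.20, SE 0.10, adjusted p = 0.204), whereas its log2 fold change with the length trend removed was 0.34, adjusted p = 0.0359.

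In single mice, the medians over the mitosis list were 0.17, 0.37 and 0.38 above the Con-sa mean in B-sa mice 1, 2 and 3, and those over the DNA replication list were 0.21, 0.33 and 0.32. The Con-sa mice lay between -0.05 and 0.06 for both lists. The number of mitosis genes called higher was 17 without Con-sa mouse 2 and without Con-sa mouse 3, 13 without B-sa mouse 2 and 19 without B-sa mouse 3. The number of replication genes was 21 without Con-sa mouse 2, 22 without Con-sa mouse 3 and 18 without B-sa mouse 2. Red cell precursors divide rapidly, and of the 3 B-sa mice mouse 1 had the lowest median for their list as well. Their part in the division genes was not tested.

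The promoters of mitosis genes often hold the cell cycle genes homology region (CHR), the letters TTTGAA on either strand, close to the start site, where the complexes that regulate these genes in the late cell cycle bind. In RefSeq promoters of GRCm38.p6, covering 250 bases before to 50 bases after the start, the motif was present in 73.5% of the 49 windows of the 47 mitosis genes with a listed promoter, against 12.6% of the windows of tested genes and 17.9% of all promoters. In the windows of the DNA replication genes the share was 13.5%. It was 18.8% for all genes called higher and 9.6% for all genes called lower. The 140 bases before the start site are shown for 4 mitosis genes that were called higher, because they hold this motif at a like distance from the start. The capitals mark the motif (TTCAAA is TTTGAA on the other strand), and a match is a description of the letters.
Ube2c (chr2:164769789-164769928, plus strand): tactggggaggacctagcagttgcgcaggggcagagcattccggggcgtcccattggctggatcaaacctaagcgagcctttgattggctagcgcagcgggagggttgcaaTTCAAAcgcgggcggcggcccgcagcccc
Ncapg (chr5:45669785-45669924, plus strand): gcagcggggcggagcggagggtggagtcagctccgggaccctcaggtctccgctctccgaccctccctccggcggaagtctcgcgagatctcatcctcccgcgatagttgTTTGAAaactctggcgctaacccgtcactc
Kif22 (chr7:127042421-127042560, minus strand): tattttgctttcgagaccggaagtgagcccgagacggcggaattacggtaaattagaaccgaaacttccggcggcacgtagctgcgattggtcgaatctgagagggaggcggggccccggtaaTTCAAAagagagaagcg
Cdk1 (chr10:69352913-69353052, minus strand): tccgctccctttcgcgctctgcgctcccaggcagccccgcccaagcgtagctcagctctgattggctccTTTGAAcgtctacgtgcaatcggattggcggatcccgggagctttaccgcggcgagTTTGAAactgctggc
Ube2c, whose product marks mitotic regulators for destruction, was at 320.4, 318 and 362 RPKM in the Con-sa mice and at 395, 502 and 425 RPKM in the B-sa mice. Cdk1, the mitotic kinase, was at 35.7, 33.7 and 34.7 against 38.4, 47.9 and 45.4 RPKM. Ncapg, part of the condensin complex, and Kif22, a kinesin of the spindle, had log2 fold changes of 0.39 and 0.42 beside 0.40 and 0.32 for Ube2c and Cdk1. The match nearest to the start site began 15 to 30 bases before it in the 4 genes, and the groups did not overlap in any of them. The GATA motif AGATAA, searched on both strands, was found in 23.5% of the windows of erythroid genes and 10% of those of heme synthesis genes, against 6.88% of the windows of tested genes and 11.2% of all promoters.

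**Figure D4:**
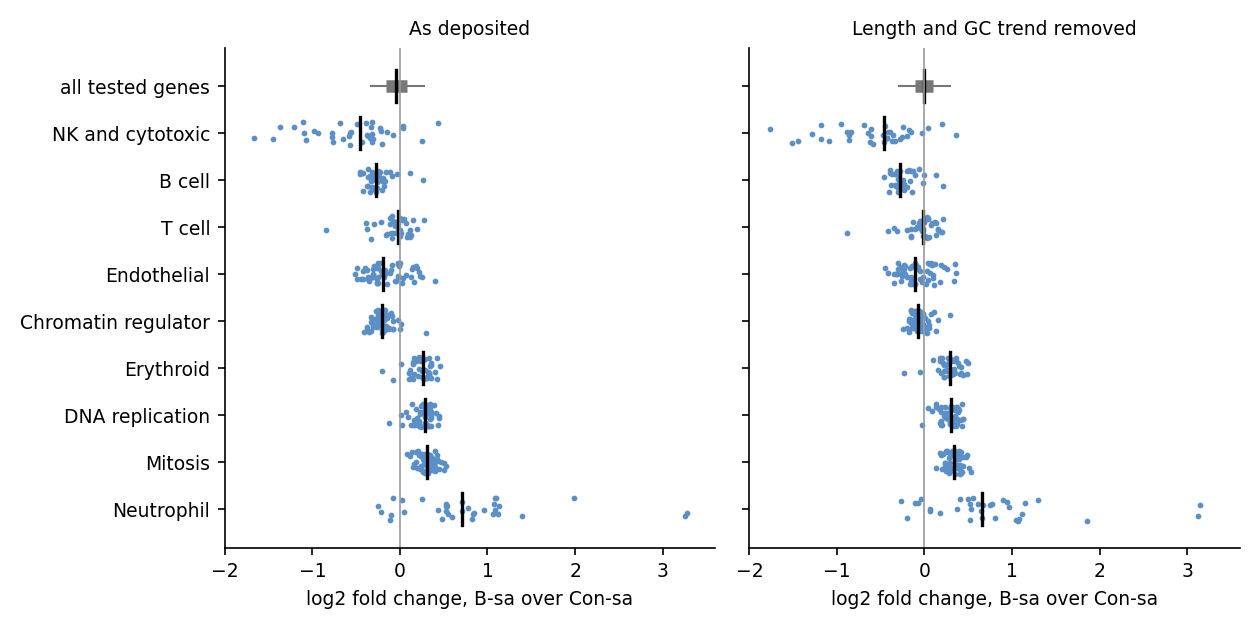
Fold changes of list members. Each point is the log2 fold change of 1 gene, B-sa over Con-sa, as deposited (left) or after removal of the length and GC trend (right), black ticks are medians, and for all tested genes the grey bar spans the 25th to 75th and the line the 5th to 95th percentile. The medians of the NK list (-0.46 and -0.46) and the mitosis list (0.30 and 0.34) are alike on both sides, and that of chromatin regulators moves from -0.21 to -0.07.

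Genes that respond to DNA damage had no common direction. Of 43 p53 targets, 5 were higher and 3 lower, with a median of -0.01. Cdkn1a (p21, the inhibitor of cyclin-dependent kinases, chr17:29090979-29100722) was at 7.09, 7.67 and 9.27 RPKM in the Con-sa mice and at 12.6, 14.7 and 12.2 RPKM in the B-sa mice (log2 fold change 0.66, SE 0.17, adjusted p = 0.0316), without overlap. Near it on chromosome 17, Mapk13 and Rab44 rose by 0.71 and 0.79 and Fgd2 fell by 0.53, so that 4 of 14 tested genes of this stretch changed by a log2 of at least 0.5. Phlda3, Psrc1, Gadd45a and Ckap2 rose by 0.33 to 0.56, of which Ckap2 and Psrc1 also act at the mitotic spindle. Ddb2, Dcxr and Mdm4 fell by 0.26, 0.29 and 0.24. Trp53 itself was at 89.6, 91.6 and 94.6 against 90.3, 84.2 and 79.2 RPKM, with overlap (log2 fold change -0.12, SE 0.06, adjusted p = 0.169). The number of p53 targets called higher was 0 without Con-sa mouse 2 or B-sa mouse 2, 2 without Con-sa mouse 1 or 3, and 3 without B-sa mouse 1 or 3. The number called lower was 0 without Con-sa mouse 1, 2 or 3 or B-sa mouse 2 or 3 and with median-of-ratios scaling, and 1 with the 6 mice alone.

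Of 51 genes of crosslink repair, which removes lesions of the kind that busulfan makes, 6 rose and 2 fell, with a median of 0.03. Brca1, which acts in homologous recombination and is made mostly in dividing cells, was at 12.4, 10.7 and 10.8 RPKM in the Con-sa mice and at 14, 15.2 and 16.2 RPKM in the B-sa mice (log2 fold change 0.39, SE 0.08, adjusted p = 0.00998), without overlap. Fancl rose by 0.30. Atm and Parp1, which sense breaks, fell by 0.28 and 0.19. Of the repair genes, the number higher was 3 without Con-sa mouse 2 or 3 or B-sa mouse 2, and 10 with median-of-ratios scaling, and the number lower was 0 without Con-sa mouse 1 or 2 or B-sa mouse 2 and with the length trend removed, median-of-ratios scaling or the 6 mice alone, and 1 without Con-sa mouse 3.

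In the Bcl2 family, 1 of 30 genes was higher and 2 were lower. Bcl2l1 (Bcl-xL), which protects red cell precursors from death, was at 46.6, 43.4 and 53 RPKM in the Con-sa mice and at 56.8, 65.9 and 65.1 RPKM in the B-sa mice (log2 fold change 0.39, SE 0.08, adjusted p = 0.0101), and the pro-apoptotic genes Bmf and Bok fell by 0.47 and 0.40. In this family the number lower was 1 without Con-sa mouse 1 or 3 or B-sa mouse 2 or 3 and with median-of-ratios scaling, and 4 without B-sa mouse 1, and the number higher was 2 without B-sa mouse 1. Bcl2 was at 16.9, 16.7 and 16.8 against 14.4, 13.1 and 14.6 RPKM, without overlap and not called (log2 fold change -0.24, SE 0.09, adjusted p = 0.0949). Of 27 glutathione genes, which include the transferases that clear busulfan, 2 rose (Gstm5, 0.43, and Gclm, 0.31) and 0 fell. The number of glutathione genes that rose was 1 without Con-sa mouse 2 or 3 or B-sa mouse 2 or 3 and with the 6 mice alone.

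Oxidative stress genes were called more often upward, with 10 of 32 higher and 2 lower and a median of 0.12. Txn1 (thioredoxin) was at 118, 132 and 117 against 173, 182 and 147 RPKM (log2 fold change 0.44, SE 0.08, adjusted p = 0.00657), without overlap. Prdx2 and Gpx1, peroxide-removing enzymes that red cells hold in quantity, rose by 0.36 and 0.36. The extracellular peroxidase Gpx3 fell by 0.55 and Osgin1 by 0.41. The number of these genes called higher was 3 without B-sa mouse 2, 4 without Con-sa mouse 2 and with the 6 mice alone, and 6 without Con-sa mouse 1 or 3, and the number lower was 0 without Con-sa mouse 3 or B-sa mouse 1 or 3, and 1 without Con-sa mouse 1 or 2 and with the 6 mice alone. Among 26 genes of senescence and its secreted factors 5 rose and 2 fell. Of those that rose, Hmgb2 (0.46), Hmgb1 and Lmnb1 (0.22 and 0.26) are known to drop in senescent cells and to be high in dividing ones. Igfbp7 and Csf1 fell by 0.42 and 0.32. On the senescence list the number that rose was 2 without Con-sa mouse 2 or B-sa mouse 2, and 3 without Con-sa mouse 3 or B-sa mouse 3 and with the 6 mice alone.

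Endothelial genes were called lower more often than higher. Ptprb, a phosphatase of vessel walls that restrains the Tie2 receptor, was at 6.35, 5.88 and 5.90 RPKM in the Con-sa mice and at 3.91, 3.76 and 4.19 RPKM in the B-sa mice (log2 fold change -0.51, SE 0.08, adjusted p = 0.00509). Stab2, a scavenger receptor of sinus endothelium, was at 16, 15.6 and 14.2 against 9.71, 10.8 and 11.2 RPKM (log2 fold change -0.49, SE 0.07, adjusted p = 0.00338). Neither gene overlapped between the groups. Of 58 endothelial genes tested, 20 were lower and 1 was higher, with a median of -0.19, and 14 were lower with the length trend removed (median -0.11). Ramp2, Eng and Plvap, which serve adrenomedullin signalling, TGF-beta signalling and the diaphragms of fenestrated vessels, fell by 0.42, 0.35 and 0.36. Ackr1, the chemokine-binding receptor of venules, was the member that rose (0.40). Pecam1 (CD31) was at 50.3, 50.7 and 53.5 against 47.4, 42.5 and 43.5 RPKM, without overlap (log2 fold change -0.21, SE 0.06, adjusted p = 0.0292). Kdr, the VEGF receptor VEGFR2, was at 8.94, 8.54 and 8.76 against 7.69, 7.85 and 7.54 RPKM, also without overlap, and was not called (log2 fold change -0.16, SE 0.09, adjusted p = 0.248). The number of endothelial genes called lower was 9 without B-sa mouse 2, 10 without Con-sa mouse 3, 11 without B-sa mouse 3, and 13 without Con-sa mouse 1, and the number higher was 0 without Con-sa mouse 1, 2 or 3 or B-sa mouse 2 or 3 and with the 6 mice alone, and 4 without B-sa mouse 1.

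Of 26 VEGF and Tie signalling genes, 6 fell and 0 rose as deposited. The number that fell was 0 without Con-sa mouse 3 or B-sa mouse 2 and with the length trend removed, 1 without Con-sa mouse 1 or B-sa mouse 3, 2 with the 6 mice alone, and 3 with median-of-ratios scaling. Among the 5 connexin and junction genes tested, Gja1 (connexin 43) was at 18.4, 18.3 and 17.5 against 12.8, 14.9 and 14.8 RPKM, without overlap (log2 fold change -0.33, SE 0.07, adjusted p = 0.0106), and Tjp1 (ZO-1), the scaffold that ties junctions to actin, was at 4.86, 4.05 and 4.30 against 6.31, 7.06 and 7.25 RPKM (log2 fold change 0.54, SE 0.11, adjusted p = 0.0108). Connexin 43 thus fell while its scaffold rose. Integrin chains gave 1 lower of 22 (Itga3, -0.34). For integrins the number lower was 0 without Con-sa mouse 1 or 2 or B-sa mouse 2 or 3 and with the length trend removed, median-of-ratios scaling or the 6 mice alone, and 2 without B-sa mouse 1. The addressin Madcam1 was at 13.3, 12.4 and 16.7 against 20.7, 13.7 and 14.7 RPKM and the adhesion molecule Vcam1 at 113, 115 and 107 against 102, 119 and 122 RPKM, both with overlap and neither called.

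In the white pulp stroma list, 7 of 32 genes were lower and 1 (Enpp2, 0.29) was higher, with a median of -0.10. Nr5a1, a transcription factor of splenic vessel endothelium, was at 6.86, 6.26 and 6.57 against 4.53, 4.33 and 4.83 RPKM, without overlap (log2 fold change -0.44, SE 0.08, adjusted p = 0.0059). Coch fell by 0.34, Cxcl12, a chemokine of stromal cells, by 0.29, Tlx1, needed for the spleen to form, by 0.25, and Ltb, the lymphotoxin of lymphocytes that maintains the stroma, by 0.24. Cxcr5 and Gpr183, the other members that fell, are receptors of B cells. The chemokines of the T cell and B cell zones were not called. Ccl21a was at 588, 707 and 781 against 847, 585 and 449 RPKM, with overlap (log2 fold change -0.18, SE 0.21, adjusted p = 0.602), and Cxcl13 had a mean of 159.9 ± 8.78 RPKM in Con-sa mice and 211 ± 33.7 RPKM in B-sa mice (SD, n = 3), without overlap (log2 fold change 0.39, SE 0.13, adjusted p = 0.0748). Ccr7, Cd27 and Ngfr overlapped between the groups, with log2 fold changes of -0.16, -0.05 and -0.04 (SE 0.10, 0.15 and 0.14). The number of stroma genes called lower was 3 without Con-sa mouse 3 or B-sa mouse 2, and 4 without Con-sa mouse 2 or B-sa mouse 3, and the number higher was 0 without Con-sa mouse 1 or 2, and 2 with median-of-ratios scaling.

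Of 53 matrix and fibroblast genes 7 fell, among them Col4a1 and Col4a2 of the basement membrane (0.29 and 0.26). Of all genes tested 9.98% were called lower, and this list and that of smooth muscle lay near that share. The number of matrix genes called lower was 0 without Con-sa mouse 3, 1 without Con-sa mouse 1, 2 without Con-sa mouse 2 or B-sa mouse 1, 2 or 3 and with the length trend removed, 3 with median-of-ratios scaling, and 4 with the 6 mice alone. Smooth muscle and pericyte genes gave 3 lower of 24, with Kcnj8 and Abcc9, the subunits of a pericyte potassium channel, at -0.49 and -0.33, and Notch3 at -0.32. For smooth muscle and pericytes the number was 0 without Con-sa mouse 1, and 1 without Con-sa mouse 3 or B-sa mouse 2 and with the 6 mice alone. Abcc9 and Notch3 were not called with the length trend removed (limma log2 fold changes -0.22, adjusted p = 0.102 and -0.13, adjusted p = 0.374).

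Of 27 Toll-like receptor genes 6 fell and 0 rose, with a median of -0.16, among them Tlr6 (-0.33) and Ly96 (-0.42), the partner of the endotoxin receptor. The number of Toll-like receptor genes called was 1 without B-sa mouse 2, 2 without Con-sa mouse 2 and with the 6 mice alone, 3 without Con-sa mouse 1 and with median-of-ratios scaling, and 11 without B-sa mouse 1. Of 72 interferon-stimulated genes 7 fell and 1 rose, with a median of 0.02. This lay near the share of all genes tested, 9.98% lower and 4.83% higher. Among the called ones, Trim30a, Trim30d and Trim12c lie beside the beta-globin genes. Of the interferon-stimulated genes, the number lower was 2 without Con-sa mouse 1 or 2 or B-sa mouse 2, 3 without B-sa mouse 3 and with the length trend removed, and 4 without Con-sa mouse 3 and with median-of-ratios scaling, and the number higher was 0 without B-sa mouse 2, and 2 without B-sa mouse 3 and with median-of-ratios scaling. NF-kB and inflammatory genes gave 2 lower of 32 (Rel and Ccl5). For these the number lower was 0 without Con-sa mouse 1 or 2 or B-sa mouse 2, 1 without Con-sa mouse 3 or B-sa mouse 3 and with the length trend removed, median-of-ratios scaling or the 6 mice alone, and 7 without B-sa mouse 1. In the complement list Cd55, which protects cells from complement, was the 1 called gene of 28. It was at 93.1, 98.3 and 96.2 RPKM in the Con-sa mice and at 68.3, 61.3 and 60.4 RPKM in the B-sa mice (log2 fold change -0.59, SE 0.06, adjusted p = 0.000404), and no B-sa mouse came near the Con-sa range. In that list the number lower was 2 without B-sa mouse 1. Heat shock genes gave 1 higher (Bag1) and 1 lower (Hsf1) of 41. For heat shock the number higher was 0 without Con-sa mouse 1 or 2 or B-sa mouse 2, 3 without B-sa mouse 1, and 5 with median-of-ratios scaling, and the number lower was 0 without Con-sa mouse 1 or 3 or B-sa mouse 2 or 3 and with the 6 mice alone.

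Housekeeping lists differed in direction from one another. The log2 fold change was negative in 55 of 58 chromatin regulators and positive in 72 of 76 respiratory chain and 35 of 40 proteasome genes. Of 58 chromatin regulators, whose median transcript length was 8359.5 bases, 34 were lower and 1 was higher, with a median of -0.21. The number of chromatin regulators called lower was 2 with the length trend removed, 11 without B-sa mouse 2, 15 without Con-sa mouse 1 and with the 6 mice alone, 17 without Con-sa mouse 2, 19 with median-of-ratios scaling, and 20 without Con-sa mouse 3. The number higher was 2 with the length trend removed. Ezh2, the Polycomb methyltransferase of dividing cells, was the member that rose (0.30). Respiratory chain genes, with a median length of 760.5 bases, gave 13 higher and 0 lower of 76. Proteasome genes gave 10 higher and 0 lower of 40. For the respiratory chain the number higher was 2 without Con-sa mouse 1 or 2 or B-sa mouse 2 and with the 6 mice alone, 6 without Con-sa mouse 3, 7 with the length trend removed, and 23 with median-of-ratios scaling. For the proteasome it was 1 without B-sa mouse 2 and with the 6 mice alone, 2 without Con-sa mouse 1 or 3, 4 without Con-sa mouse 2 or B-sa mouse 1, 5 with the length trend removed, and 19 with median-of-ratios scaling. Of the 82 cytosolic ribosomal protein genes, with a median length of 777.5 bases, Rps27 was lower (-0.29) and 0 were higher, with a median of -0.04, whereas the number lower was 2 without B-sa mouse 1, and 14 with the length trend removed, and the number higher was 3 with median-of-ratios scaling.

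The largest falls were in the beta-globin genes. Hbb-bs (gene 100503605, chr7:103826523-103827928) was at 25330, 45902 and 20290 RPKM in the Con-sa mice and at 30.5, 17.3 and 9.2 RPKM in the B-sa mice (log2 fold change -10.63, SE 1.96, adjusted p = 0.0132). Hbb-bt was at 5653, 10095 and 4650 against 12.1, 16.4 and 11.7 RPKM, and Hbb-b1 at 35832, 15053 and 37780 against 71434, 87642 and 79130 RPKM. No mouse of either group overlapped the other in these genes, and without B-sa mouse 2 the limma adjusted p of Hbb-bs was 0.0528. Mice carry either of 2 beta-globin haplotypes, which hold Hbb-bs and Hbb-bt or Hbb-b1 and Hbb-b2, and outbred stocks can hold both. The genes are near-identical copies, and reads may be split among them. The 4 genes summed to 71143 to 74808 RPKM in Con-sa mice and 85841 to 105833 RPKM in B-sa mice, a ratio of means of 1.3, and the adult alpha genes gave a ratio of 1.23.

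Hbb-bs and Hbb-bt made up 41.4, 75.3 and 35.1% of the beta sum in the Con-sa mice and 0.0497, 0.0319 and 0.022% in the B-sa mice. In the mice given microbiota after busulfan, the share was 0.0619, 27.2 and 6.09% in B+Con-FMT and lay between 13 and 23.8% in B+A10-FMT. Genotypes are not given in the sources used here, and the haplotype and the treatment of the B-sa mice cannot be told apart for these genes.

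Genes next to the beta-globin cluster also differed between the groups. Trim30d, of the tripartite motif family of interferon-induced proteins, was at 3.94, 7.38 and 3.17 RPKM in the Con-sa mice and at 0.40, 0.54 and 0.27 RPKM in the B-sa mice (log2 fold change -1.99, SE 0.35, adjusted p = 0.00875), without overlap. It was under 1 RPKM in all B-sa mice and passed the filter only through the Con-sa mice. Trim30b, Trim5, Trim34a and Trim30a fell by 1.38, 0.90, 0.74 and 0.50, and Trim12c rose by 0.68. Con-sa mouse 2, which had the highest Hbb-bs of the Con-sa mice, had their highest Trim30d, Trim30b and Trim5 and their lowest Trim12c. B+Con-FMT mouse 1, in which Hbb-bs was at 36.4 RPKM, had the lowest Trim30d of all 12 mice (0.2 RPKM). Other mice did not follow this order. In B+A10-FMT mice 2 and 3, Hbb-bs was at 13234 and 10623 RPKM, but Trim12c (33.95 and 35.38 RPKM) lay in the B-sa range of 32.37 to 35.48. Trim5 was at 3.35 RPKM in B+Con-FMT mouse 2 (Hbb-bs at 20930 RPKM) and at 3.36 RPKM in B-sa mouse 1. The cause was not tested. In chr7:103812524-104507853, 9 of the 10 tested genes were called with a log2 change of at least 0.5. Across the genome, 178 placed genes were called with a change of that size, of which 63 (35.4%) had another within 500000 bases. The share that gene density alone would give was not computed. They formed 9 runs of 3 or more, with 47 genes in all, among them the Klr receptors on chromosome 6 and the stefin A genes on chromosome 16.

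**Figure D5:**
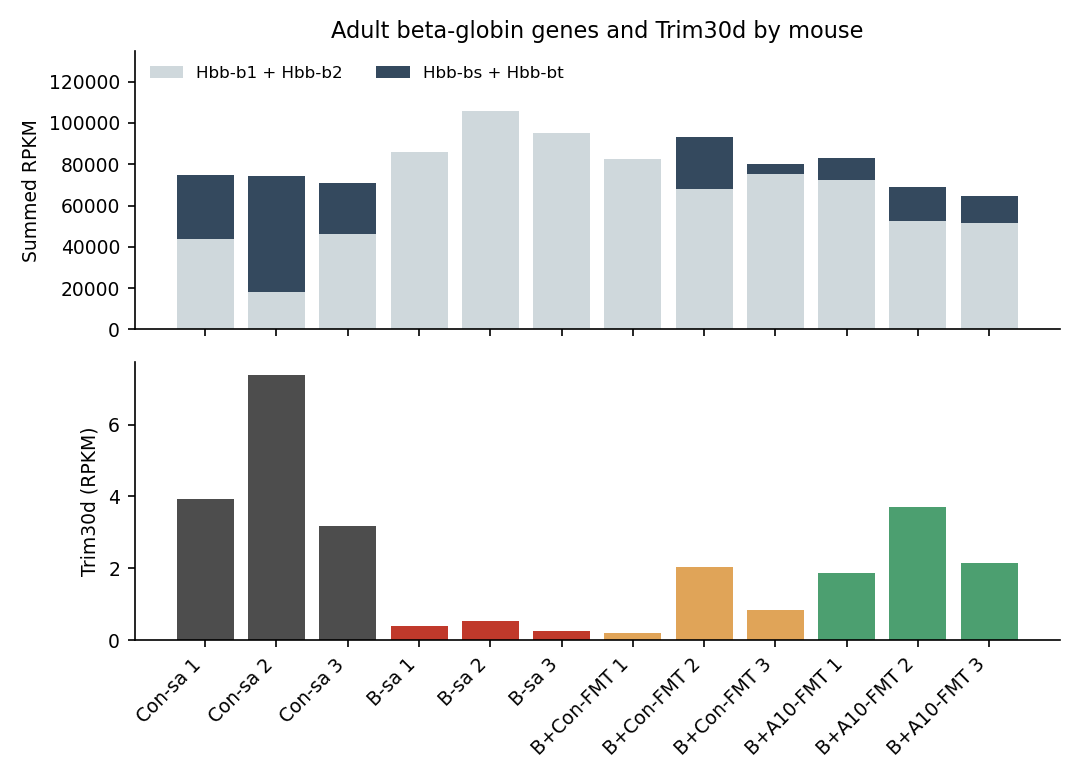
Adult beta-globin genes and Trim30d by mouse. The upper bars show the summed RPKM of Hbb-b1 and Hbb-b2 and of Hbb-bs and Hbb-bt in each of the 12 mice, and the lower bars show Trim30d in RPKM. The part from Hbb-bs and Hbb-bt is large in all Con-sa mice, visible in 5 of the 6 mice given microbiota and too small to see in the B-sa mice and B+Con-FMT mouse 1, the 4 mice in which Trim30d is lowest.

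Other large changes were in single genes. Fggy, a carbohydrate kinase (gene 75578, chr4:95557480-95926939), was at 4.03, 4.39 and 3.56 RPKM in the Con-sa mice and at 1.02, 0.71 and 0.58 RPKM in the B-sa mice (log2 fold change -1.50, SE 0.12, adjusted p = 0.000124). Aass, the first enzyme of lysine breakdown, was at 3.04, 1.33 and 0.88 RPKM in the Con-sa mice and at 13.1, 11.6 and 23.9 RPKM in the B-sa mice (log2 fold change 2.66, SE 0.57, adjusted p = 0.0213). The groups did not overlap in either gene, and B-sa mouse 3 was the highest for Aass. Without Con-sa mouse 2 or 3 or B-sa mouse 2 or 3, Aass was not called (limma adjusted p up to 0.0645), whereas Fggy was called without any 1 mouse. Cerkl rose by 1.66, and the uncharacterized genes Gm40892 and Gm4184 rose by 1.63 and 1.48, while LOC108167383 fell by 1.58.

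Kidney genes were detected in the spleens of Con-sa mice. Kap (gene 16483, chr6:133849855-133853667), an androgen-induced protein of the kidney tubule, was at 96.9, 72.7 and 112 RPKM in the Con-sa mice and at 7.23, 11.6 and 14.4 RPKM in the B-sa mice, with an 8.48-fold lower mean in B-sa mice (adjusted p = 0.0102). Slc34a1, the phosphate carrier of the proximal tubule, was at 2.05, 2.02 and 3.73 against 0.41, 0.35 and 0.51 RPKM (adjusted p = 0.00607), and Miox, which breaks down inositol, was at 1.90, 1.33 and 1.42 against 0.15, 0.22 and 0.44 RPKM (adjusted p = 0.00457). In these genes the Con-sa mice all lay above the B-sa mice. Slc34a1 and Miox were under 1 RPKM in all B-sa mice and passed the filter only through the Con-sa mice, where they were high. Umod, the main protein of urine, was at 0.65 to 1 RPKM in the Con-sa mice and at 0 to 0.03 RPKM in the B-sa mice, below the level for testing. The liver gene Alb was at 55.7, 9.66 and 122 against 3.81, 34.2 and 19.6 RPKM, with overlap, and was not called (log2 fold change -1.47, SE 1.07, adjusted p = 0.385). Of 17 kidney and liver genes tested, 3 were lower and 0 higher. The part of other tissue in the spleen samples was not tested.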

How the data were processed

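The authors enriched polyadenylated RNA with oligo(dT), sequenced it and deposited values for 60654 RefSeq transcripts, 1 table per sample, which were taken as RPKM. Their methods name SOAPaligner and an Illumina sequencer, whereas the labels name HISAT, Bowtie2, mm10 and BGISEQ, and which applies to these files was not resolved. RPKM were added over the transcripts of 18221 genes, of which 18101 had a symbol in RefSeq GRCm38.p6 and 16746 a transcript length and GC content in GENCODE. Depth was estimated from the steps between low RPKM values. Counting intervals are not given, as read numbers were not used here. Tests used limma 3.58.1 (R 4.3.3; trend and robust settings) over all 12 samples in 1 fit, contrast B-sa minus Con-sa, pseudocount 1, two-sided, with Benjamini-Hochberg adjustment over all 12448 genes tested. Single values were compared by exact permutation. The procedure was tested on simulated data. The authors' own test needs read counts and was not used. The comparison and the 57 gene lists, written from general knowledge, were chosen with earlier results of these data known. A gene may be on several lists, and 9 listed genes were not found in the tables. Other steps used Python 3.11.15 (pandas 2.3.3, SciPy 1.17.1).

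Genes named are the 12 largest rises and 12 largest falls among called genes without overlap and with a mean of at least 1 RPKM, the 2 most abundant tested and up to 3 most changed called members of each list, the defining genes of cell types, and genes the study names for this comparison. Other genes, among them Blk, Camp, Eomes, Prf1, Plk1, Tipin, Cdk1, Ncapg, Eng and the neighbours of Cdkn1a and of the beta-globin genes, were named after their values were seen. Alternatives were a pseudocount of 0.1, other filters, a replicate block, the 6 mice alone, 3 other scalings (median of ratios, equal non-globin totals, length and GC trend removed), no trend or robust setting, single transcripts, and each mouse left out. Some genes of the lists are counted in them but are not reported here by name.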

Additional observations from a re-analysis of the deposited data

How the results depend on the processing

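The number of genes called (1843, with 601 higher and 1242 lower) stayed within 1.5 times of that value, in total and in each direction, under a pseudocount of 0.1, 3 other filters, no trend or robust setting, and equal totals outside the globins. With the 6 mice alone it was 1003 (355 higher, 648 lower). Median-of-ratios scaling gave 974 higher and 746 lower, and removal of the length and GC trend gave 697 higher and 591 lower. Single transcripts gave 209 of 23049 (84 higher, 125 lower). Leaving out 1 mouse gave 531 to 2108 called genes, with 172 to 702 higher and 359 to 1406 lower. Deviations of same-numbered mice from their group means correlated at -0.21, -0.39 and 0.19, and those of differently numbered mice at -0.44 to 0.53. With 3 mice per group these values cannot tell whether equal numbers mark a pair or a batch. The fit with the replicate block called 1519 genes (504 higher, 1015 lower), with 18 neutrophil genes higher. No named gene that was called turned its direction under another pseudocount, scaling or length correction or with 1 mouse left out, except that Hbb-b1, Hbb-b2, Gm40892, Gm4184 and LOC108167383 have no value with the length correction. Genes that were not called and lay near 0 did turn, such as Vcam1 and Ccl21a. Of the called genes named in the text, Abcc9, Ace, Atf6, Atm, Capg, Cd24a, Ciita, Clock, Col4a1, Col4a2, Cstdc4, Ctsg, Cxcl12, Fgd5, Gadd45a, Gp9, Il1rl1, Itga3, Lmo2, Ms4a3, Nbeal2, Notch3, Parp1, Rel, Satb1, Scd1, Scd2, Slc2a1, Tbx21, Tef, Trim30a, Txnip and Zfp36 were not called with the length and GC trend removed. In all, 388 genes (130 higher, 258 lower) were called in the same direction in every gene-level setting that tested them (a stricter filter or the length correction leaves some of them untested), among them 13 NK and cytotoxic, 8 B cell, 12 mitosis, 18 DNA replication, 9 endothelial and 0 neutrophil genes. The cause of these shifts was not tested. Depth limits genes near 1 RPKM.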

Other observations

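Of 15 genes of basophils, mast cells and eosinophils, 2 were higher, Epx (eosinophil peroxidase, 0.66) and Il1rl1 (the receptor for IL-33, 0.32). Epx was under 1 RPKM in all Con-sa mice and passed the filter only through the B-sa mice. In the unfolded protein and amino acid response, 2 of 31 genes were higher, Asns (asparagine synthetase, 0.42) and Atf4 (0.22), and Atf6 was lower (-0.27). Of 21 circadian clock genes 2 were lower (Clock and Tef). Glycolysis gave 1 higher (Slc16a3, a lactate carrier) and 1 lower (Slc2a1, a glucose carrier) of 27. Cholesterol and lipid synthesis gave 1 higher (Cyp51) and 2 lower (Scd1 and Scd2) of 27. Immediate early genes gave 1 higher (Ppp1r15a) and 2 lower (Klf2 and Zfp36) of 33. Glucocorticoid and metal response genes gave 1 higher (Cdkn1a) and 1 lower (Txnip) of 22. Mesothelial genes of the capsule had a median of 0.33 with 1 of 16 higher (Upk1b), and adipocyte genes a median of 0.21 with 1 of 18 lower (Scd1). Of 20 adhesion genes 1 was higher and 4 were lower, and of 5 skeletal muscle genes 0 were called. For basophils, mast cells and eosinophils the number was 0 without Con-sa mouse 3 or B-sa mouse 2, and 1 without Con-sa mouse 1 or B-sa mouse 3 and with the length trend removed. In the unfolded protein response the number higher was 1 without Con-sa mouse 1 or B-sa mouse 2 or 3 and with the 6 mice alone, and the number lower was 0 without Con-sa mouse 1 or 2 or B-sa mouse 2 and with the length trend removed, median-of-ratios scaling or the 6 mice alone, and 2 without Con-sa mouse 3 or B-sa mouse 3. Among clock genes the number lower was 0 without Con-sa mouse 1 or 3 or B-sa mouse 2 and with the length trend removed or the 6 mice alone, and 1 without Con-sa mouse 2 and with median-of-ratios scaling. In glycolysis the number higher was 0 without Con-sa mouse 1, 2 or 3 or B-sa mouse 2 and with the 6 mice alone, 2 without B-sa mouse 1 or 3, and 3 with median-of-ratios scaling, and the number lower was 0 without Con-sa mouse 1, 2 or 3 or B-sa mouse 2 or 3 and with the length trend removed, median-of-ratios scaling or the 6 mice alone. In cholesterol and lipid synthesis the number higher was 0 without Con-sa mouse 1, 2 or 3 or B-sa mouse 1 or 2 and with the 6 mice alone, and 2 with the length trend removed or median-of-ratios scaling, and the number lower was 0 without Con-sa mouse 1, 2 or 3 or B-sa mouse 2 or 3 and with the length trend removed, median-of-ratios scaling or the 6 mice alone, and 1 without B-sa mouse 1. Among immediate early genes the number higher was 0 without Con-sa mouse 1, 2 or 3 or B-sa mouse 2 and with the 6 mice alone, and the number lower was 0 without B-sa mouse 2, 1 without Con-sa mouse 1, 2 or 3 or B-sa mouse 3 and with the length trend removed, median-of-ratios scaling or the 6 mice alone, and 4 without B-sa mouse 1. In the glucocorticoid and metal response the number higher was 0 without Con-sa mouse 1 or 2 or B-sa mouse 2, and the number lower was 0 without Con-sa mouse 1 or 3 or B-sa mouse 2 and with the length trend removed, median-of-ratios scaling or the 6 mice alone, and 3 without B-sa mouse 3. Among adipocyte genes the number lower was 0 without Con-sa mouse 1, 2 or 3 or B-sa mouse 1, 2 or 3 and with the length trend removed, median-of-ratios scaling or the 6 mice alone, and 1 was higher without B-sa mouse 1, with the length trend removed or with median-of-ratios scaling. The number of mesothelial genes called higher was 0 without Con-sa mouse 2 or B-sa mouse 2 or 3, 2 without Con-sa mouse 3, 3 with median-of-ratios scaling, and 8 without B-sa mouse 1. That of adhesion genes was 2 without Con-sa mouse 2 or 3 or B-sa mouse 2 for the lower ones and 0 without Con-sa mouse 1, 2 or 3 or B-sa mouse 2 or 3 and with the 6 mice alone, and 3 without B-sa mouse 1 for the higher one.

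The heat shock motif GAANNTTC was found in 36.4% of the promoter windows of heat shock genes against 5.89% of those of tested genes and 7.86% of all promoters. The interferon-stimulated response element was found in 50.7% of those of interferon-stimulated genes, against 3.31% and 3.44%, and CACGTG in 6 of 24 windows of clock genes, against 9.72% and 7.15%. All were searched on both strands.

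In the mice given microbiota after busulfan, Ncr1 was at 3.15, 2.51 and 3.29 RPKM in B+Con-FMT and at 3.10, 5.85 and 6.32 RPKM in B+A10-FMT, below the 12.6 to 13.3 RPKM of the Con-sa mice. Gzma was at 9.84, 20.6 and 17.2 RPKM and at 14.7, 28.5 and 23.9 RPKM, likewise below the Con-sa mice. Fggy, which was at 0.58 to 1.02 RPKM in the B-sa mice, was at 2.63, 3.36 and 2.81 RPKM and at 4.05, 3.19 and 4.14 RPKM. Aass was at 22.7, 19.4 and 23.8 RPKM in B+Con-FMT and at 7.17, 0.96 and 1.02 RPKM in B+A10-FMT. These values are given side by side, and no test between the groups was run.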
